A study of Mus musculus with 29 samples.

Results

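The integrin and laminin chains are the genes for the cell-surface receptors that hold a cell to its surrounding matrix and for the basement membrane proteins that many of these receptors bind. The members were named by gene symbol: 15 integrin alpha chains, 8 integrin beta chains, 5 laminin alpha chains, 3 laminin beta chains and 2 laminin gamma chains. All 33 were found among the 56953 features of the count table through their Ensembl identifiers.

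Each integrin is a pair of an alpha and a beta chain, and the pair decides the ligand: collagens, laminins, or proteins that carry the RGD (arginine-glycine-aspartate) motif such as fibronectin and vitronectin. Each laminin is a trimer of an alpha, a beta and a gamma chain, laid down in basement membranes around vessels, nerves, muscle fibres, epithelia and adipocytes. In white fat, the cells that adhere in culture from the stromal vascular fraction (SVF, the mix of cells left when the floating adipocytes are removed) are mainly fibroblast-like adipose stem cells. They meet plastic and the matrix they make themselves through these chains.

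Crude SVF was taken from inguinal (iWAT, subcutaneous) and perigonadal (pgWAT, around the gonads) white adipose tissue of adult male and female C57BL6/J mice, a common inbred strain. All cultures were grown for 4 days in PM1 medium with 1 nM basic fibroblast growth factor, and no library came from untreated or freshly isolated cells. Per the labels, 29 Smart-seq3 libraries (a full-length RNA-seq protocol, here on bulk RNA) were made, 19 of iWAT (10 from males and 9 from females) and 10 of pgWAT (4 from males and 6 from females). The study's methods give other sizes for these groups, and the labels were followed here. The labels name a well for each library and no animal or experiment. The study describes technical replicates from few independent experiments, fewer for pgWAT than for iWAT and fewer than the libraries of either depot. So n counts wells, and p-values measure the spread between wells, which the study describes as technical replicates. The spread between experiments or animals cannot be taken from these labels. Replicate numbers follow the order of the deposited samples and pair nothing.

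Library totals ran from 315316 to 1102234 counts, and 3 counts corresponded to 2.58 to 9.76 CPM (counts-per-million, scaled by TMM factors of 0.949 to 1.06). Y-linked transcripts (Ddx3y, Eif2s3y, Uty and Kdm5d) were taken as present above 3 summed counts per library. By this measure 5 pgWAT libraries went against the labelled sex, namely pgWAT female replicates 1, 2 and 3 and pgWAT male replicates 2 and 4. This occurred in 0 iWAT libraries. The paper reports low Ddx3y and Eif2s3y counts in its female pgWAT cultures and describes them as a low grade of contamination. That description is of female cultures, and counts that low can pass the cut used here. It does not cover pgWAT male replicates 2 and 4, which are labelled male and stood at or below the cut. Why these 5 libraries differ from their label was not tested. The groups below keep the labels, and the results that rest on these libraries are also given without them. All 6 fibroblast markers were present in every group, with a summed level of 6390 to 12200 CPM in iWAT and 11700 to 22700 CPM in pgWAT. Mesothelial markers (4 genes) summed to 0 to 6.18 CPM in iWAT and 43.4 to 140 CPM in pgWAT, with Lrrn4 at 0 in every iWAT library. Smooth muscle markers (4 genes) summed to 584 to 3540 CPM in iWAT and 1340 to 3130 CPM in pgWAT. Des, a muscle filament gene, ran from 4.04 to 64.9 CPM in iWAT and 64.2 to 320 CPM in pgWAT, while Pax7, Myod1 and Myf5 were at 0 in pgWAT. These marker levels move with the depot beside every depot difference given below, and their part in those differences was not tested. In bulk RNA, fewer cells of a type and less RNA per cell cannot be told apart.

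Each of the 33 chains had at least 1 count in at least 1 library, 14 had counts in all 29 libraries, and 8 had counts in fewer than 15. Between 20 and 29 chains were detected per library. The 8 sparse chains were Itga10, Itgal, Itgb6, Itgb8, Lama1, Lama3, Lamb3 and Lamc3. Itgb6 was the least often seen, with 6 counts over 4 libraries. A filter on low counts left 18 chains for testing: 8 of 15 integrin alpha, 4 of 8 integrin beta, 3 of 5 laminin alpha, 2 of 3 laminin beta and 1 of 2 laminin gamma chains. A chain could pass through a group in which it was high, so the 18 do not stand for the 33.

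**Figure D1:**
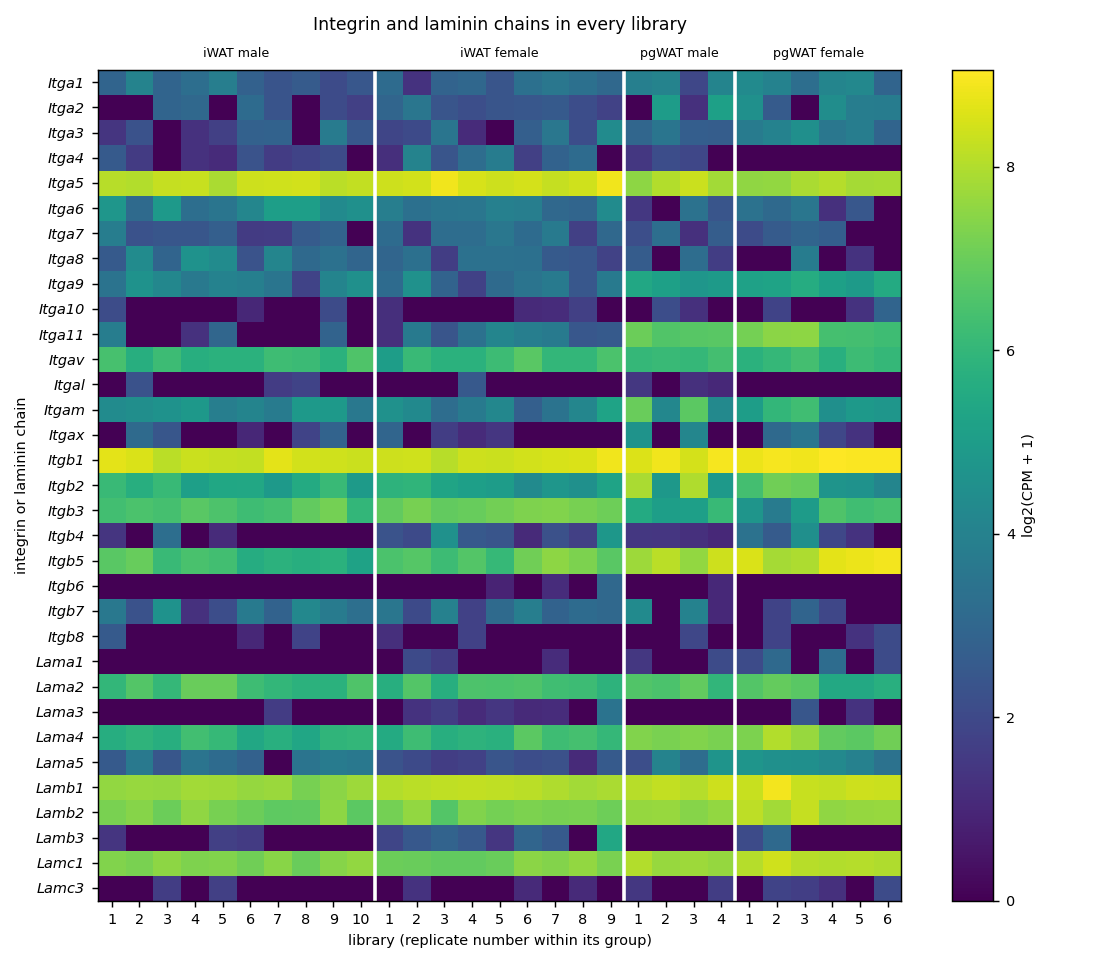
Heat map of log2(CPM + 1) for the 33 integrin and laminin chains (rows) in the 29 libraries (columns, replicate number within each labelled group, groups parted by white lines). Itga5, Itgb1, Lamb1, Lamb2 and Lamc1 are bright in every library, Itga11 and Itgb5 brighten from iWAT to pgWAT, and Itgb2 and Itgam are brightest in pgWAT male replicates 1 and 3.

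Levels of different chains were compared per kilobase of transcript (CPM per kb, with the mean length of the gene's protein-coding transcripts). On this scale Itgb1, the beta chain shared by the collagen, laminin and fibronectin receptors, was the highest integrin chain at 152 ± 21.5 CPM per kb in iWAT (SD, n = 19) and 205 ± 25.8 in pgWAT (n = 10). Itga5, which with Itgb1 forms the main fibronectin receptor, was the highest alpha chain at 75.3 ± 13.1 CPM per kb in iWAT and 53.2 ± 9.47 in pgWAT. It made up 62.6% of the per-kb level of the 15 alpha chains in iWAT and 39.3% in pgWAT. Itgav followed in iWAT with 17.9%, and in pgWAT Itga11 with 17.2% and Itgav with 16.0% were close together. These shares move with the transcript length used: with the longest transcript of each gene Itga5 held 73.5% and 47.6%, Itgav 9.35% and 8.55%, and Itga11 1.12% and 20.9% in iWAT and pgWAT.

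Among the laminins, Lamc1 held 99.8% of the gamma-chain level per kb in iWAT and 99.6% in pgWAT. Lamb2 was above Lamb1 per kb with the mean transcript length (58.6% and 40.6% of the beta chains in iWAT) and below it with the longest (39.0% and 59.9%), so the order of these chains was not settled. Lama2 and Lama4 together held nearly the whole alpha-chain level. The ratio of Lama4 to Lama2 per kb within a library was 0.501 to 1.1 in iWAT (median 0.729) and 1.29 to 2.58 in pgWAT (median 1.9). The depots did not overlap in this ratio with the longest transcripts either, at 0.838 to 1.84 in iWAT and 2.15 to 4.31 in pgWAT. Lama4 alone also did not overlap between the depots, and no share of such ratios over other gene pairs was taken.

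The comparison of the depots, over both labelled sexes, asked which chains differ between SVF cells of pgWAT and of iWAT. Of the 18 tested chains, 16 passed the test (edgeR quasi-likelihood, false discovery rate, FDR, below 0.05): 12 were higher and 4 were lower in pgWAT. Over all 8853 tested genes 38.1% were called, 20.1% as higher and 17.9% as lower. The median log2 fold change of the tested chains was 0.61, beside 0.01 for all tested genes. Of the 6 tested laminin chains 5 were higher, Lama2 was not called and 0 were lower. The laminin chains not tested, at low counts, are given below. The integrin alpha chains moved both ways, with 4 higher and 3 lower of 8. The levels of 5 chains, Itga9, Itga11, Itgb5, Lama4 and Lamc1, did not overlap between the 19 iWAT and the 10 pgWAT libraries. This held for 2.13% of all tested genes.

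**Figure D2:**
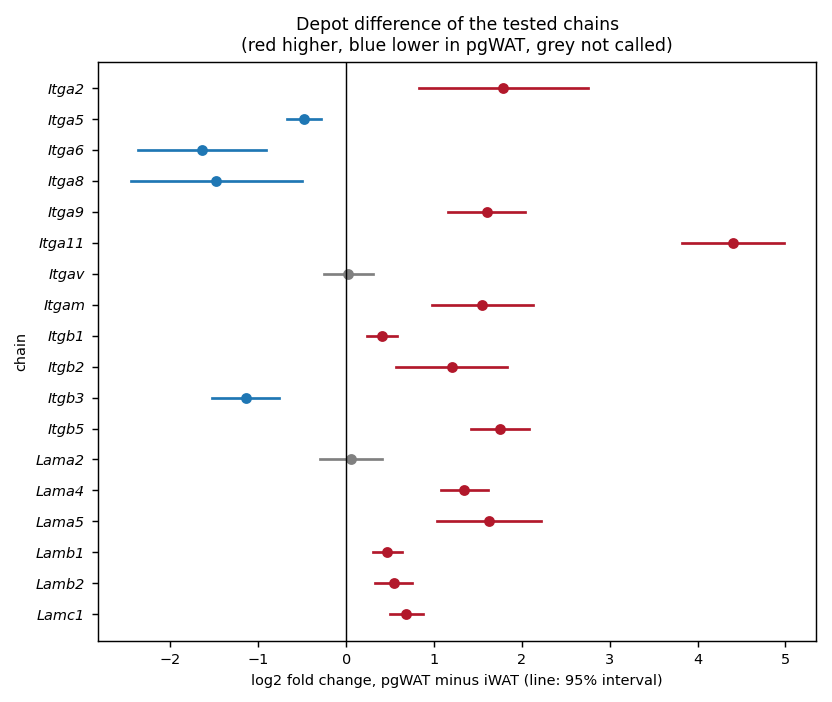
Log2 fold change of the 18 tested chains, pgWAT minus iWAT, over both labelled sexes. Points are edgeR estimates and lines their 95% intervals, red for chains called as higher in pgWAT, blue for lower and grey for not called. Itga11 stands at 4.40, Itga6 at -1.64, and the intervals of Itgav and Lama2 span 0.

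**Figure D3:**
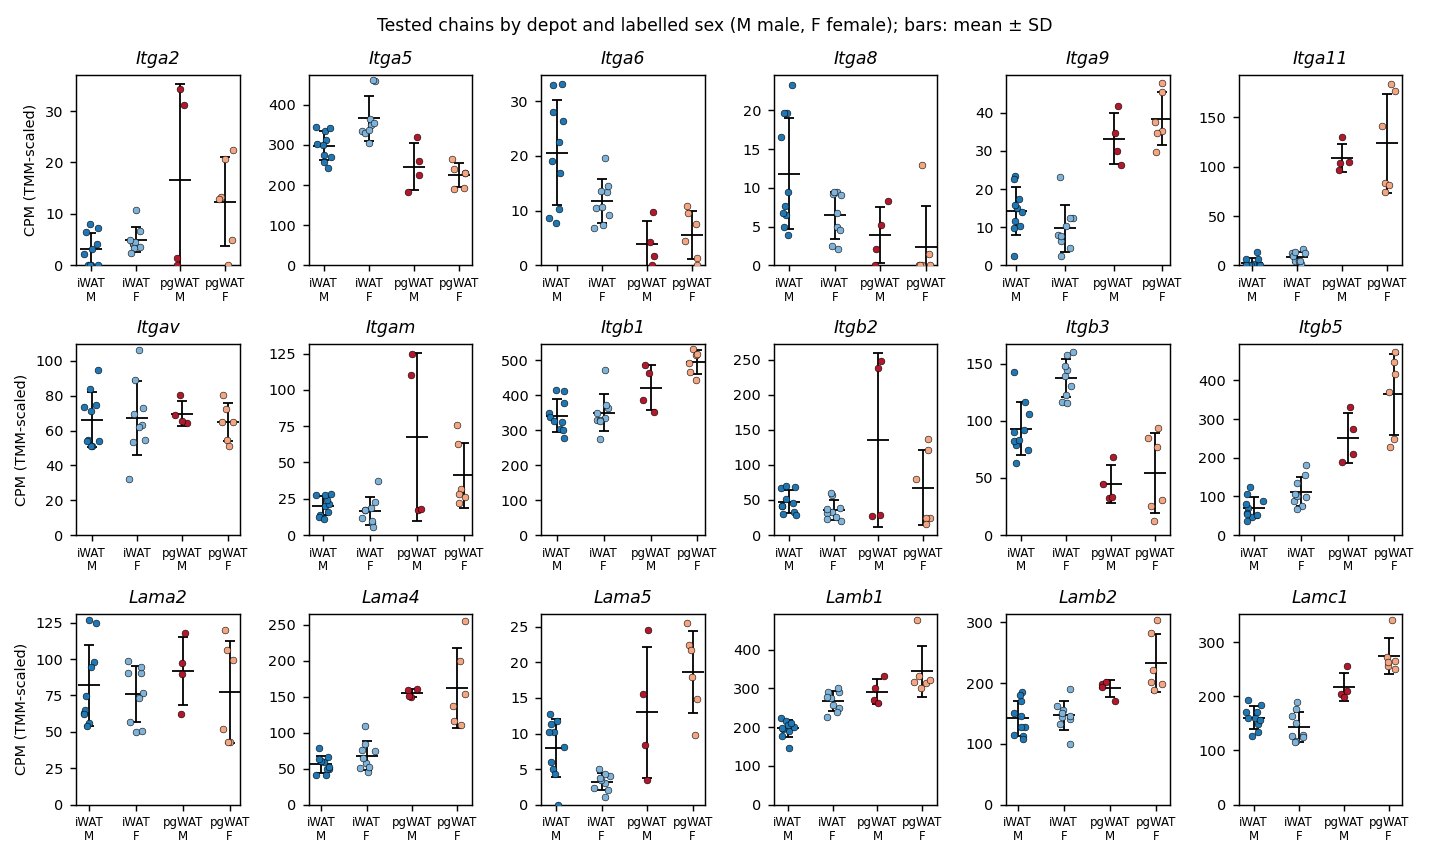
CPM of each tested chain by depot and labelled sex, 1 point per library, with the mean (horizontal mark) and SD (bar) of each labelled group. Every axis starts at 0. All pgWAT points of Itga9, Itga11, Itgb5, Lama4 and Lamc1 lie above all iWAT points. The pgWAT points of Itgb2 fall into a high and a low set, and 4 pgWAT points of Itgam lie above all iWAT points.

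The collagen receptors pair Itgb1 with Itga1, Itga2, Itga10 or Itga11. Itga11, a receptor for fibrillar collagen on mesenchymal cells, showed the largest depot difference of the chains. In iWAT male libraries it ran from 0 to 13.2 CPM with a median of 0, and in iWAT female libraries from 1.35 to 16.3 CPM with a median of 9.53. In pgWAT male replicates 1 to 4 it was 130, 96.8, 104 and 105 CPM, and in pgWAT female libraries 74.8 to 184 CPM with a median of 112. Every pgWAT library was thus above every iWAT library. The mean was 5.64 ± 5.64 CPM in iWAT (SD, n = 19) and 118 ± 39.2 in pgWAT (n = 10), a 21.2-fold difference (log2 fold change 4.40, SE 0.28, FDR 2.2e-14). Within pgWAT female, replicates 1 to 3 stood at 141, 177 and 184 CPM and replicates 4 to 6 at 83.0, 81.5 and 74.8 CPM. Replicates 1 to 3 are those whose Y-linked counts went against the label. They were also the ones in well column 10, and replicates 4 to 6 were in well column 8.

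Itga2, which binds collagen and in some cells laminin, was also called as higher in pgWAT (log2 fold change 1.79, SE 0.47, FDR 0.00293), with wide scatter. In iWAT it ran from 0 to 10.8 CPM. In pgWAT male replicates 1 to 4 it was 0, 31.1, 1.39 and 34.3 CPM, and in pgWAT female libraries 0 to 22.4 CPM with a median of 13.2. The call was lost with limma-voom (FDR 0.0896), and Itga2 fell below the filter without the 5 libraries at odds with their label. Itgb1 was 345 ± 48.7 CPM in iWAT and 465 ± 58.3 in pgWAT, a 1.33-fold difference (log2 fold change 0.41, SE 0.08, FDR 0.000213). Itga1 (7.28 ± 3.51 and 13.2 ± 5.37 CPM) and Itga10 (0.707 ± 1.11 and 1.53 ± 2.14 CPM in iWAT and pgWAT) were too low to be tested. The ratio of Itga11 to Itga1 per kb within a library overlapped between the depots, at 0 to 17.7 in iWAT and 10.1 to 82.8 in pgWAT.

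The receptors of the RGD motif include Itgav, Itga5 and Itga8 with the beta chains Itgb1, Itgb3, Itgb5, Itgb6 and Itgb8. Of the 7 chains other than Itgb1, 5 were tested, of which 1 was higher, 3 were lower and 1 was not called. Itgb5, which with Itgav binds vitronectin, was higher in pgWAT. It ran from 36.1 to 123 CPM in iWAT male libraries (median 62.7) and from 67.0 to 181 CPM in iWAT female libraries (median 102). In pgWAT male replicates 1 to 4 it was 210, 275, 190 and 331 CPM, and in pgWAT female libraries 227 to 472 CPM (median 394). The depots did not overlap, and the log2 fold change was 1.75 (SE 0.16, FDR 1.77e-10).

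Itgb3, the other beta chain that joins Itgav in vitronectin receptors, went the opposite way. It was 63.2 to 143 CPM in iWAT male libraries (median 86.5) and 116 to 160 CPM in iWAT female libraries (median 139). It fell to 45.1, 32.8, 33.3 and 68.5 CPM in pgWAT male replicates 1 to 4, and in pgWAT female libraries 12.5 to 94.1 CPM (median 53.7). All 10 pgWAT libraries were below the iWAT mean of 114 CPM, and 6 were below every iWAT library (a log2 fold change of -1.14, SE 0.19, FDR 9.13e-06). The ratio of Itgb5 to Itgb3 per kb within a library was 0.774 to 2.81 in iWAT (median 1.65) and 9.07 to 37.3 in pgWAT (median 11.8). With the longest transcripts it was 0.666 to 2.41 and 7.8 to 32.1, and no share of such ratios over other gene pairs was taken. Their shared partner Itgav did not pass the test, at 66.6 ± 17.9 CPM in iWAT and 66.7 ± 9.52 CPM in pgWAT (log2 fold change 0.03, 95% interval -0.26 to 0.31, FDR 0.907).

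Itga5 was 330 ± 57.2 CPM in iWAT and 233 ± 41.5 CPM in pgWAT, lower in pgWAT by 1.40-fold (log2 fold change -0.48, SE 0.09, FDR 0.000121). Each of the 10 pgWAT values lay below the iWAT mean, and the ranges overlapped (242 to 461 and 182 to 319 CPM). Itga8, which with Itgb1 binds nephronectin and fibronectin, fell by 1.48 on the log2 scale (SE 0.48, FDR 0.0145) from low levels. It ran from 2.11 to 23.3 CPM in iWAT, all 19 libraries having counts, and from 0 to 13.0 CPM in pgWAT, where 5 of 10 libraries had counts. The highest pgWAT value was in pgWAT female replicate 3, without which the log2 fold change was -2.55. With the well column as a factor the call was lost (FDR 0.0709). Itgb6, an epithelial partner of Itgav, had 5 counts over the iWAT libraries and 1 over the pgWAT libraries, and Itgb8 had 8 and 5.

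The 250 bases before the annotated start are printed for 3 chains, from RefSeq on GRCm38.p6, a build other than that of the counts. Itga11 and Itgb5 had the largest depot differences among the chains without overlap, and Itga5 was the most abundant alpha chain and lower in pgWAT. Of the 33 chains, 22 had an entry in the promoter table. Capitals mark matches on either strand to 5 motifs. The GC box was searched as GGGCGG, the box named for its own letters as CCAAT, the AP-1 site of the Fos and Jun factors as TGANTCA, the TEAD site of the Hippo pathway as GGAATG and the TATA box as TATAAA. In these 3 windows no match overlapped another.
Itga11, chr9:62677605-62677854, plus strand: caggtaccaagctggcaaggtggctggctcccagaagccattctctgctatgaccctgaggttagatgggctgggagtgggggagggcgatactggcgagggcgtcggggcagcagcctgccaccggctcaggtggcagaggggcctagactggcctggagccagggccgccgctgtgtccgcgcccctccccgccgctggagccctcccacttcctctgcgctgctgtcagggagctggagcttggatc
Itgb5, chr16:33829415-33829664, plus strand: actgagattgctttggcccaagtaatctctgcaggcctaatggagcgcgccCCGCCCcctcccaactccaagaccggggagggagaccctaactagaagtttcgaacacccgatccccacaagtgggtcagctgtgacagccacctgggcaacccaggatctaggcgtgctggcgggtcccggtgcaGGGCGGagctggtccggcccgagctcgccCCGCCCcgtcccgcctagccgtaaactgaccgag
Itga5, chr15:103366792-103367041, minus strand: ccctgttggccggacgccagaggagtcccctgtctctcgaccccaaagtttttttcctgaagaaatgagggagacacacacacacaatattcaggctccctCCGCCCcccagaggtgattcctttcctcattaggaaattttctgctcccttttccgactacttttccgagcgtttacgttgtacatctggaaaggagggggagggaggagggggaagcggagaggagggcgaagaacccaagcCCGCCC

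The Itga11 window held none of the 5 motifs and had a GC content of 68.4%. The Itgb5 window held 3 GC boxes, starting 199, 63 and 34 bases before the start (GC content 65.2%), and the Itga5 window held 2, starting 149 and 6 bases before it (55.6%). A GC box was present in 8 of the 22 chains' windows and in 32.7% of the 32851 windows in the table. The CCAAT letters were in 3 of 22 (33.8% of all windows), AP-1 in 1 (6.75%), TEAD in 2 (12.6%) and the TATA letters in 0 (12.4%). These are matches of letters in a short window.

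The laminin receptors pair Itgb1 with Itga3, Itga6 or Itga7, or Itga6 with Itgb4 in epithelia. Itga6 fell by 1.64 on the log2 scale (SE 0.36, FDR 0.000432). It was 7.82 to 33.2 CPM in iWAT male libraries (median 20.8) and 6.78 to 19.7 CPM in iWAT female libraries (median 10.7). Levels were 1.74, 0, 9.72 and 4.28 CPM in pgWAT male replicates 1 to 4, and in pgWAT female libraries 0 to 10.8 CPM (median 5.97). All 10 pgWAT libraries lay below the iWAT mean and 6 below every iWAT library. Itga3 (5.06 ± 5.17 CPM in iWAT and 10.9 ± 5.14 in pgWAT), Itga7 (6.03 ± 3.75 and 3.91 ± 2.84 CPM) and Itgb4 (4.48 ± 7.67 and 4.65 ± 6.59 CPM) were not tested.

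Itga9 and Itga4 belong to a branch of alpha chains that bind tenascin, osteopontin and, for Itga4, fibronectin and a vascular adhesion molecule. Itga9 ran from 2.54 to 23.5 CPM in iWAT male libraries (median 14.5) and from 2.38 to 23.2 CPM in iWAT female libraries (median 8.08). Values of 41.7, 34.6, 26.4 and 30.0 CPM were found in pgWAT male replicates 1 to 4, and in pgWAT female libraries 29.6 to 47.7 CPM (median 36.3). The depots did not overlap (log2 fold change of 1.60 with an SE of 0.22, FDR 3.58e-07). Itga4 had 62 counts in 16 of 19 iWAT libraries and 5 counts in 3 of 10 pgWAT libraries. It entered the test only with no low-count filter, and was then lower in pgWAT (log2 fold change -2.70, SE 0.76, FDR 0.00579).

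The leukocyte integrins pair Itgb2 with Itgal, Itgam or Itgax, and Itgb7 with Itga4. Itgam with Itgb2 is the complement receptor of macrophages and neutrophils. Itgb2 was called as higher in pgWAT (log2 fold change 1.20, SE 0.31, FDR 0.00239), as was Itgam (1.55, SE 0.28, FDR 4.12e-05), but the pgWAT libraries fell into sets by their Itgb2 level. In pgWAT male replicates 1 to 4 Itgb2 was 238, 27.7, 249 and 28.9 CPM. In pgWAT female replicates 1 to 6 it was 80.0, 137, 122, 24.9, 23.7 and 16.3 CPM. The iWAT libraries ran from 19.3 to 69.7 CPM, so 5 pgWAT libraries lay above every iWAT library and the other 5 at or below 28.9 CPM. The high set was pgWAT male replicates 1 and 3 and pgWAT female replicates 1 to 3. It had more than 3 Y-linked counts per library and the low set 3 or fewer, so the split follows these counts and not the labelled sex. The high set stood in well columns 7, 8 and 10 and the low set in columns 8 and 9, and the part of the column was not tested. Itgam was above every iWAT library in 4 of the 5 libraries of the high set, with 125, 17.3, 110 and 18.2 CPM in pgWAT male replicates 1 to 4. In pgWAT female replicates 1 to 6 it was 32.0, 62.5, 75.9, 22.1, 28.2 and 26.0 CPM, and in iWAT 5.67 to 37.0 CPM.

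The summed level of 7 leukocyte and macrophage markers, none of them an integrin chain, was given beside these values. It was 733 and 905 CPM in pgWAT male replicates 1 and 3, 294 to 410 CPM in pgWAT female replicates 1 to 3, and 145 to 190 CPM in the other 5 pgWAT libraries. In iWAT it was 196 to 306 CPM in male and 91.6 to 171 CPM in female libraries. The pan-leukocyte marker Ptprc ran from 0 to 10.2 CPM in iWAT and from 0 to 25.0 CPM in pgWAT. The part of the marker level in the depot call was not tested. Within well column 9 alone (4 iWAT and 2 pgWAT libraries), where the pgWAT libraries were of the low set, the log2 fold changes were -0.61 for Itgb2 and -0.24 for Itgam. The Itgb2 call was also lost with limma-voom (FDR 0.125). Itgax, a dendritic cell and macrophage chain, was 24.3 and 16.7 CPM in pgWAT male replicates 1 and 3 and 7.50 and 10.8 CPM in pgWAT female replicates 2 and 3, and 0 to 7.82 CPM in iWAT. With no low-count filter it was called as higher in pgWAT (log2 fold change 1.84, SE 0.57, FDR 0.0163). Itgal had 8 counts over the iWAT libraries and 3 over the pgWAT libraries. Itgb7 was 9.25 ± 5.75 CPM in iWAT and 4.72 ± 6.93 in pgWAT and was not tested.

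**Figure D4:**
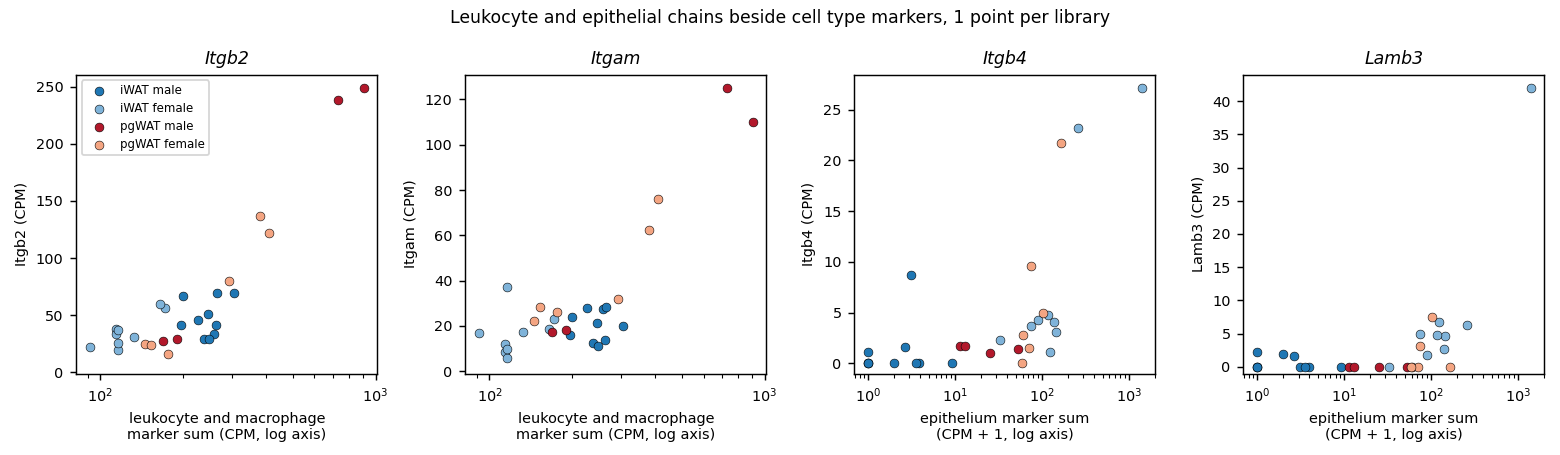
Itgb2 and Itgam (CPM) against the summed CPM of 7 leukocyte and macrophage markers, and Itgb4 and Lamb3 (CPM) against the summed CPM of 4 epithelial markers plus 1, 1 point per library, coloured by labelled group, with log horizontal axes. The pgWAT male points at 733 and 905 CPM of leukocyte markers hold the highest Itgb2 levels, and the iWAT female point at 1410 CPM of epithelial markers holds the highest Itgb4 and Lamb3 levels.

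Lama4, the alpha chain of laminins in vessel walls and around adipocytes, was the laminin alpha chain with the clearest depot difference. It ran from 40.6 to 78.5 CPM in iWAT male libraries (median 55.3) and from 45.8 to 109 CPM in iWAT female libraries (median 64.2). The pgWAT male replicates 1 to 4 stood at 161, 149, 160 and 151 CPM, and in pgWAT female libraries 110 to 255 CPM (median 145). The depots did not overlap, though the highest iWAT and the lowest pgWAT library were close (109 and 110 CPM). The log2 fold change was 1.35 (SE 0.13, FDR 7.38e-10).

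Lama2, the alpha chain of muscle and nerve laminins, was 78.9 ± 23.6 CPM in iWAT and 83.1 ± 30.3 in pgWAT and was not called (log2 fold change 0.05, 95% interval -0.30 to 0.41, FDR 0.839). Its pgWAT values spread widely, at 42.9, 43.0 and 52.1 CPM in pgWAT female replicates 4 to 6, 62.1 CPM in pgWAT male replicate 4 and 89.9 to 120 CPM in the other 6 libraries. Lama5, the alpha chain of epithelial and vascular laminins, was called as higher in pgWAT (log2 fold change 1.63, SE 0.29, FDR 3.25e-05). It ran from 0 to 12.7 CPM in iWAT male libraries (median 9.11) and from 1.13 to 4.94 CPM in iWAT female libraries (median 3.40). In pgWAT male replicates 1 to 4 it was 3.47, 15.6, 8.33 and 24.6 CPM, and in pgWAT female libraries 9.76 to 25.6 CPM (median 19.8). The depots overlapped, with 7 of 10 pgWAT libraries above every iWAT library. Lama5 fell below the filter without the 5 libraries at odds with their label.

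The chains that most laminins share rose together in pgWAT. Lamc1, the common gamma chain, was 153 ± 25.0 CPM in iWAT and 252 ± 42.0 CPM in pgWAT without overlap, between 116 and 194 CPM in iWAT and between 199 and 342 CPM in pgWAT (log2 fold change 0.69, SE 0.09, FDR 2.8e-07). Lamb2 was 144 ± 26.0 CPM in iWAT and 216 ± 42.7 CPM in pgWAT (log2 fold change 0.54, SE 0.10, FDR 7.96e-05). Lamb1 was 230 ± 43.0 CPM in iWAT and 323 ± 59.1 CPM in pgWAT (log2 fold change 0.47, SE 0.08, FDR 2.69e-05). Lamb1 and Lamb2 overlapped, with 7 and 8 of the 10 pgWAT libraries above every iWAT library.

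The remaining laminin chains were sparse. Lama1 had 4 counts over the iWAT libraries and 15 over the pgWAT libraries, and with no low-count filter was called as higher in pgWAT (log2 fold change 2.58, SE 0.70, FDR 0.00394). Lamc3 had 6 and 7 counts. Lama3 and Lamb3, chains of the epithelial laminin that anchors skin and ducts, had 12 and 46 counts in iWAT and 3 and 4 in pgWAT. Their highest values stood in iWAT female replicate 9, with 41.9 CPM of Lamb3 and 9.87 CPM of Lama3. Itgb4 (27.1 CPM) and Itgb6 (7.4 CPM) were highest in the same library. The summed level of 4 epithelial markers was 1410 CPM there, 31.7 to 262 CPM in the other iWAT female libraries, 0 to 8.31 CPM in iWAT male libraries and 10.4 to 165 CPM in pgWAT. Itgb4 was also 23.2 CPM in iWAT female replicate 3 and 21.7 CPM in pgWAT female replicate 3, the libraries with the next highest epithelial sums (262 and 165 CPM). Epcam, the defining marker, ran from 0 to 7.4 CPM in iWAT and from 0 to 5.0 CPM in pgWAT, with a median of 0 in both. The part of the epithelial marker level in these values was not tested.

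Taken within the libraries labelled male, 12 of 18 tested chains differed between the depots, 10 higher and 2 lower in pgWAT, beside 20.3% of all tested genes. Within the libraries labelled female 12 of 18 differed, again 10 higher and 2 lower, beside 26.8% of all tested genes. Itga11 rose by 5.12 (SE 0.45) on the log2 scale in libraries labelled male and by 3.68 (SE 0.35) in those labelled female. For Itgb5 the log2 fold changes were 1.81 (SE 0.24) and 1.70 (SE 0.22), for Lama4 1.46 (SE 0.20) and 1.23 (SE 0.18), and for Itgb3 -0.998 (SE 0.281) and -1.28 (SE 0.246). Lama5 was called in libraries labelled female (log2 fold change 2.47, SE 0.41, FDR 2.31e-05) and not in those labelled male (0.79, SE 0.41, FDR 0.18). Itga6 was called in libraries labelled male (-2.20, SE 0.52, FDR 0.00252) and not in those labelled female (-1.09, SE 0.49, FDR 0.104). Both groups hold libraries in doubt, and leaving out the 5 changed these calls. In the libraries labelled male, 7 of 20 tested chains were then called, 6 higher and 1 lower, beside 9.16% of all tested genes. Itga11 (5.20), Itgam (2.53), Itgb2 (2.34), Lama4 (1.49), Itgb5 (1.45) and Itgax (3.33) were higher and Itgb3 (-1.26) was lower on the log2 scale. Lamb1, Lamb2, Lamc1, Itga9 and Itga6 (-1.71, FDR 0.07) lost the call, and Itga2 was not tested. In the libraries labelled female, 12 of 20 were called, 6 higher and 6 lower, beside 18.3% of all tested genes. Itga11 (3.07), Itgb5 (1.98), Itga9 (1.901), Lamc1 (0.83), Lama4 (0.80) and Itgb1 (0.58) were higher. Itga5 (-0.59) and Itgb3 (-0.69) kept their call as lower, and Itga6 (-2.23, FDR 0.0186), Itga8 (-3.18), Itgb7 (-2.62) and Lama2 (-0.77) gained one. Itgam, Lamb1 and Lamb2 lost the call, and Lama5 was not tested. Itga6 was thus called in the other labelled sex, while its estimates were -1.71 (SE 0.60) in libraries labelled male and -2.23 (SE 0.67) in those labelled female. The interaction of that fit did not call it. These comparisons rest on pgWAT male replicates 1 and 3 and pgWAT female replicates 4 to 6.

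Over all 29 libraries, the test of the difference itself, the depot by labelled sex interaction, called 0 of 18 chains in edgeR, beside 0.181% of all tested genes. At an unadjusted p under 0.05 there were 4 of 18 chains, beside 772 of all 8853 tested genes. The 4 were Lama5 (p = 0.00749), Lamc1 (p = 0.0114), Itga11 (p = 0.0309) and Itga5 (p = 0.0312). DESeq2 and limma-voom also called 0.

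Within iWAT, where Y-linked counts followed the labels, 1 of 18 tested chains differed between male and female libraries, beside 3.22% of all tested genes. Lamb1 was 147 to 224 CPM in male libraries (median 199) and 225 to 301 CPM in female libraries (median 275). The highest male and the lowest female library were close (log2 fold change -0.44, SE 0.10, FDR 0.00788). How many of all tested genes do not overlap between male and female iWAT libraries was not taken. At an unadjusted p under 0.05 there were 7 of 18 chains, beside 1413 of all 8853 tested genes. These chains were Lamb1 and 6 that missed the adjusted threshold. Of the 6, Itga11 stood at a log2 fold change of -1.61 (FDR 0.0925), Lama5 at 1.22 (FDR 0.0925), Itga6 at 0.78 (FDR 0.236), Itgb5 at -0.65 (FDR 0.0838) and Itga5 at -0.29 (FDR 0.138). The sixth, Itgb3, was 93.0 ± 23.2 CPM in male and 137 ± 16.7 CPM in female iWAT libraries (log2 fold change -0.58, FDR 0.0978). The count of called chains was 2 without iWAT male replicate 1, 2 or 7, without iWAT female replicate 1 or 5, or without pgWAT female replicate 2, and 1 without any other library. Without the 5 libraries at odds with their label, which changes the filter and the shared spread, Lamb1, Itgb3, Itgb4 and Itgb5 were called as lower in male iWAT libraries, beside 5.84% of all tested genes. Of these Itgb4 is an epithelial chain, and the epithelial marker sum was higher in every female than in every male iWAT library, as given above. The part of that sum in the Itgb4 call was not tested.

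Within pgWAT, 0 of 18 tested chains differed between the libraries labelled male and female in edgeR, beside 0.0113% of all tested genes. At an unadjusted p under 0.05 there were 2 of 18 chains, beside 739 of all 8853 tested genes. The 2 were Itgb2 (log2 fold change 1.04, 95% interval 0.05 to 2.02, FDR 0.567) and Lamc1 (-0.34, interval -0.65 to -0.04, FDR 0.533). DESeq2 and limma-voom also called 0. Without the 5 libraries at odds with their label, pgWAT male replicates 1 and 3 remained against pgWAT female replicates 4 to 6. Then 6 of 20 tested chains were called, beside 5.63% of all tested genes. Itgb2 (log2 fold change 3.39, SE 0.37), Itgb7 (3.65, SE 1.00), Itgam (2.17, SE 0.39) and Lama2 (1.22, SE 0.35) were higher in the libraries labelled male. Itgb3 (-1.16, SE 0.28) and Itgb5 (-1.18, SE 0.35) were lower. The interaction then called Itgb2 (2.98, FDR 2.69e-05) and Itgam (1.86, FDR 0.0216), beside 2.56% of all tested genes. The leukocyte marker sums of these libraries were 733 and 905 CPM against 145 to 176 CPM, and the part of this difference was not tested.

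The depot calls were also taken without the same 5 libraries. In that fit 14 chains were called over both labelled sexes, beside 23.7% of all tested genes, and Itga2 and Lama5 were below the filter. The other 14 kept their direction and their call, with Itga11 at a log2 fold change of 4.13, Itgb5 at 1.71, Itga9 at 1.56, Lama4 at 1.14 and Itga6 at -1.97.

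The position of the wells was unevenly shared between the depots. Well column 7 held 11 iWAT and 1 pgWAT libraries, column 8 held 3 and 4, column 9 held 4 and 2, and column 10 held 1 and 3. The 5 pgWAT libraries at odds with their label were all the pgWAT libraries of columns 9 and 10. Among pgWAT libraries, being at odds with the label and standing in these columns thus cannot be told apart. With the well column as a factor 15 of 18 chains were called, beside 30.6% of all tested genes, with the log2 fold change of Itga11 at 4.34, Itgb5 at 1.71, Lama4 at 1.16 and Itga9 at 1.57. Within column 8 alone 5 of 14 tested chains were called, beside 7.97% of all tested genes, and within column 9 alone 8 of 16, beside 22.2%. In these small comparisons Itga9, Itga11 and Itgb5 were called both times, and Lama4 was called in column 9 (log2 fold change 1.57) and not in column 8 (0.55, FDR 0.128). Lamb1 in the male to female comparison of iWAT kept its call within column 7 alone (log2 fold change -0.53, FDR 0.039).

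The proteins around the chains were described from 5 lists named with earlier results of these data known. For the depot their counts stand beside 38.1% of all tested genes called, 20.1% as higher and 17.9% as lower. Of the matrix ligands of integrins, 11 of 14 were tested, 8 were higher and 3 lower in pgWAT. Postn (periostin, log2 fold change 1.79, SE 0.20), Ccn2 (1.39, SE 0.18) and Fn1 (fibronectin, also on the fibroblast marker list, 0.63, SE 0.12) were among the higher. Tnc (tenascin C, a ligand of Itga9, -3.09, SE 0.20), Tgfbi (-1.58, SE 0.30) and Spp1 (osteopontin, -0.68, SE 0.15) were the lower. The list's median log2 fold change was 0.64. Of the basement membrane partners of laminins, 8 of 9 were tested, 4 were higher and 1 lower. Col4a1 (0.35, SE 0.09), Col4a2 (0.52, SE 0.10), Col4a5 (1.42, SE 0.27) and the laminin-binding linker Nid2 (1.29, SE 0.25) were higher, and Col18a1 (-1.69, SE 0.26) was lower.

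Of the laminin receptors that are not integrins, 6 of 6 were tested and 3 were higher, namely Sdc4 (1.76, SE 0.14), Bcam (1.42, SE 0.23), which binds the Lama5 chain, and dystroglycan Dag1 (1.00, SE 0.13). Rpsa, a ribosomal protein also listed as a laminin receptor, was lower (-0.38, SE 0.10). Of the adaptors that link integrin tails to actin, 23 of 24 were tested, 11 were higher, 1 was lower and 11 were not called, with a median of 0.09. Vinculin (Vcl, 0.70, SE 0.14), talin 1 (Tln1, 0.28, SE 0.07), Lims2 (1.33, SE 0.19) and the leukocyte kindlin Fermt3 (1.08, SE 0.32) were higher. Parvb (-1.44, SE 0.27) was the lower, and Ptk2 (focal adhesion kinase) was at -0.10 (SE 0.14) and not called. Of the tetraspanins and other partners, Cd151 (0.62, SE 0.07) and Cd82 (0.67, SE 0.21) were higher and 4 of 6 were not called. Without the 5 libraries at odds with their label, when 23.7% of all tested genes were called, 8 adaptors were higher and 2 lower. The matrix ligands again gave 8 higher and 3 lower, the basement membrane partners 3 and 1, the other laminin receptors 3 and 0, and the tetraspanins and partners 1 and 0.

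Between male and female iWAT libraries the counts of the lists stand beside 3.22% of all tested genes called. Of the 23 adaptors tested 1 was higher in male libraries (Lims2, log2 fold change 0.88) and 2 were lower (Actn1, -0.57, and Pxn, -0.52). Of the matrix ligands Postn (-2.10, SE 0.25) and Tnc (-1.20, SE 0.19) were lower in male libraries. Of the basement membrane partners Col4a1 was higher (0.45) and Hspg2 (perlecan) lower (-0.70). Of the other laminin receptors Sdc1 was lower (-0.58), and 0 of the 6 tetraspanins and partners were called.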

How the data were processed

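RNA of 29 cultures was profiled by Smart-seq3. The authors trimmed adapters, quantified reads with Salmon 1.9.0 against Gencode transcripts on GRCm39, used STAR 2.7.10a for quality control only, and dropped libraries in which few genes were seen. The values they deposited are expected counts of reads with and without a UMI together (so PCR copies are not removed), summed to genes and not normalized, and 85.1% of the values above 0 were exactly whole. Expected counts were rounded to whole counts. Symbols (52029 of 56953 features matched) and transcript lengths came from a Gencode annotation of GRCm38 by Ensembl identifier. The members and lists were chosen with earlier results of these data known.

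A model with the 4 labelled groups was fitted across all genes in edgeR 4.0.16 (R 4.3.3; filterByExpr, minimum count 10, 8853 genes; TMM; quasi-likelihood test, two-sided; Benjamini-Hochberg FDR below 0.05 over all genes tested). The depot contrast averages the labelled sexes. CPM use TMM-scaled totals. A chain was detected from 1 count. All chains were described by the same rule: those called or at 20 CPM or more by group, and those called at over 2-fold library by library or by range. Over 102 pairs of libraries of 1 group, chi-square per degree of freedom was 1.49 to 13.3, so no pair was merged as the same RNA sequenced again. This check cannot show whether wells came from the same animal or experiment. Alternatives used RLE factors, totals alone, other filters, DESeq2 1.42.0, limma-voom (limma 3.58.1), the well column, and left-out libraries.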

Additional observations from a re-analysis of the deposited data

Results flagged for a closer look

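In 72 pairs of a tested chain and a group of 4 to 10 libraries, 6 had a library set apart from the others by Dixon's gap, and chance alone gives about 1 in 20. Itga8 was at 13.0 CPM (6 counts) in pgWAT female replicate 3, and the next library of the group was at 1.48 CPM. Itga9 was at 23.2 CPM (15 counts) in iWAT female replicate 2, with the next at 12.4 CPM. Itga11 was at 13.2 CPM (8 counts) in iWAT male replicate 1, with the next at 6.91 CPM. Itgb1 was at 471 CPM in iWAT female replicate 9, the library with the high epithelial marker sum, and the next stood at 371 CPM. In pgWAT female replicate 2, a library at odds with its labelled sex, Lamb1 was at 477 CPM (next 333 CPM) and Lamc1 at 342 CPM (next 273 CPM). The cause of these values was not tested.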

How the results depend on the processing

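Of 618 refits of the 16 called chains, 602 kept direction and call, 14 kept direction only and 2 turned direction. Refits in which a chain fell below the filter are not among the 618, so such losses are not counted. With each of the 29 libraries left out in turn, Itga8 was tested in 25 fits and Itga2 in 27. Itga2 and Lama5 were also not tested without the 5 libraries at odds with their label. The 2 were Itgb2 (-0.61) and Itgam (-0.24) within well column 9 alone. The chains not called changed sign around 0: Itgav to -0.015 (totals alone), -0.045 (well column as a factor), -0.069 (without the 5 libraries at odds with their label), -0.292 (column 8 alone) and -0.028 to 0.075 (leave-one-out), and Lama2 to -0.018 (limma-voom), -0.001 (well column as a factor), -0.214 (without the 5), -0.477 (column 8 alone) and -0.035 to 0.124 (leave-one-out). The depot count was 5 within column 8 alone and 8 within column 9 alone, comparisons with fewer libraries. Without the 5 libraries, 7 chains were called for the depot in libraries labelled male, 4 for sex in iWAT, 6 for labelled sex in pgWAT and 2 for the interaction. For sex in iWAT, 6 chains were called with no low-count filter, 2 with DESeq2, and 1 to 2 with each library left out. With no filter the median log2 fold change of all genes for the depot was -0.12. Leaving out each library in turn, 15 to 17 chains were called for the depot. The shares of all genes called with no filter, with DESeq2 and with a library left out are not given. These counts are therefore not read against the main fit. With the longest transcripts, 15 of the 36 depot levels per kb of the tested chains moved by more than the SD. No paired analysis was possible because the labels number no replicates. At these totals, chains below about 10 CPM rest on few counts per library, and intervals cover counting and well-to-well error only.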
